A study of Mus musculus with 2 samples.

Results

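Mitochondrial ribosomal protein genes encode the proteins of the ribosome inside mitochondria. They were taken here as every protein-coding gene whose symbol starts with Mrpl (large subunit) or Mrps (small subunit) followed by a digit, pseudogenes left out. This gave 78 genes of the 25004 in the table, 49 of the large and 29 of the small subunit. Their RNA was counted in 2 libraries of mouse heart messenger RNA in a study of how cMyBP-C (cardiac myosin binding protein-C), a thick-filament protein of heart muscle, bears on contraction through its amino terminus. The non-transgenic library, called the control here, and the library with the cMyBP-C delta C0-C1f transgene each came from FvB/N mice aged 12 weeks and combined 3 hearts. The labels do not give the promoter of the transgene, and the pooled hearts cannot be told apart. With 1 library per group no difference has a replicate check, and every value describes these 2 libraries.

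The mitochondrial ribosome translates the few messenger RNAs encoded by mitochondrial DNA, which specify core subunits of the respiratory chain and of ATP synthase. Its proteins are encoded in the nucleus and imported, and many have no relative in the bacterial ribosome. Heart muscle is rich in mitochondria and draws most of its ATP from them. Exceptions to the naming are known: Mrps18a and Mrps30 sit in the large subunit of the mammalian particle, and Mrps36 belongs to the oxoglutarate dehydrogenase complex. The symbols decide the subunit here. Values with these genes reassigned are given for the subunit sums without overlap and for the shares of member counts.

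Depth was low. The control library held 170543 counts and the transgenic one 190824. A single count was worth 5.86 CPM in the former and 5.24 CPM in the latter, CPM being the usual scale relative to library size. The 3 counts that a value of 0 still allows came to 17.6 and 15.7 CPM. Intervals and floors cover counting error only. Ratios are transgenic over non-transgenic after TMM scaling, under which equal levels correspond to a raw ratio of 1.26. Heart muscle markers were abundant: the 8 cardiomyocyte markers summed to 4522 and 7385 counts, led by Myl2 with 2405 and 3916, although Tnnt2 and Myl3 were at 0 in both libraries and Myh6 had 0 and 1. Summed levels were 26515 and 38701 CPM for cardiomyocyte, 188 and 110 CPM for fibroblast, 405 and 367 CPM for endothelial, 199 and 199 CPM for smooth muscle and 46.9 and 26.2 CPM for macrophage markers. Markers of fat cells summed to 0 and 1 count, and those of red blood cells and skeletal muscle to 0. Many of the markers at 0, Tnnt2 and Myl3 among them, were listed with several RefSeq transcripts. Genes listed so were mostly at 0 here, and such a 0 does not show that a cell type was absent. The part of these marker differences in the members' ratios was not tested, and fewer cells of a type cannot be told apart from less RNA per cell.

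More than 3 counts in a library were found for 53 of the 78 members, 42 of them in both libraries and the other 11 in the transgenic library alone. The same held for 16.9% of all genes and 18.7% of protein-coding genes. By subunit, 37 of 49 large (75.5%) and 16 of 29 small members (55.2%) passed. Of the 25 that did not, Mrpl21, Mrpl22, Mrpl36 and Mrps33 had 1 to 3 counts in a library. The remaining 21 were at 0 in both: Mrpl2, Mrpl3, Mrpl4, Mrpl10, Mrpl23, Mrpl30, Mrpl42, Mrpl55 and Mrpl58 of the large subunit, and Mrps2, Mrps10, Mrps11, Mrps12, Mrps14, Mrps16, Mrps17, Mrps18b, Mrps21, Mrps23, Mrps24 and Mrps36 of the small subunit.

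The members without counts were mostly those listed with several RefSeq transcripts. The table gave the 78 members 137 transcripts. Of the 53 members with 1 listed transcript, 50 had more than 3 counts (94.3%, beside 26.9% of protein-coding genes with 1), and Mrpl23 was the only one at 0. Of the 25 members with more than 1, 3 had more than 3 counts (12.0%, beside 4.51% of protein-coding genes with more than 1), and 20 were at 0. Small-subunit members were split most sharply: all 16 with 1 transcript passed, and none of the 13 with more did. For the large subunit 34 of 37 and 3 of 12 passed. The difference in detection between the subunits therefore moved with the number of transcripts listed, and a 0 for a member with several transcripts does not show that the gene was silent.

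Counted transcripts of these 25 members were few, 5 of 84. Bases shared with no other transcript of the same gene were measured on the matching GENCODE transcript, which was possible for 33 of the 84. None of the 16 without such bases was counted, against 4 of the 17 with them and 3 of the 8 with at least 500. For Mrpl2, Mrpl15, Mrps2 and Mrps23, several listed transcripts were matched to the same GENCODE transcript. That alone leaves those transcripts with 0 bases of their own, so the comparison cannot tell whether such bases matter. Mrpl15 had its 8 transgenic counts on a transcript of 4203 bp with 2314 bases of its own. Mrpl48 had all of its counts on a non-coding transcript, of which 403 of 1625 bp (24.8%) lay opposite exons of another gene. No count was on its protein-coding transcript.

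**Figure D1:**
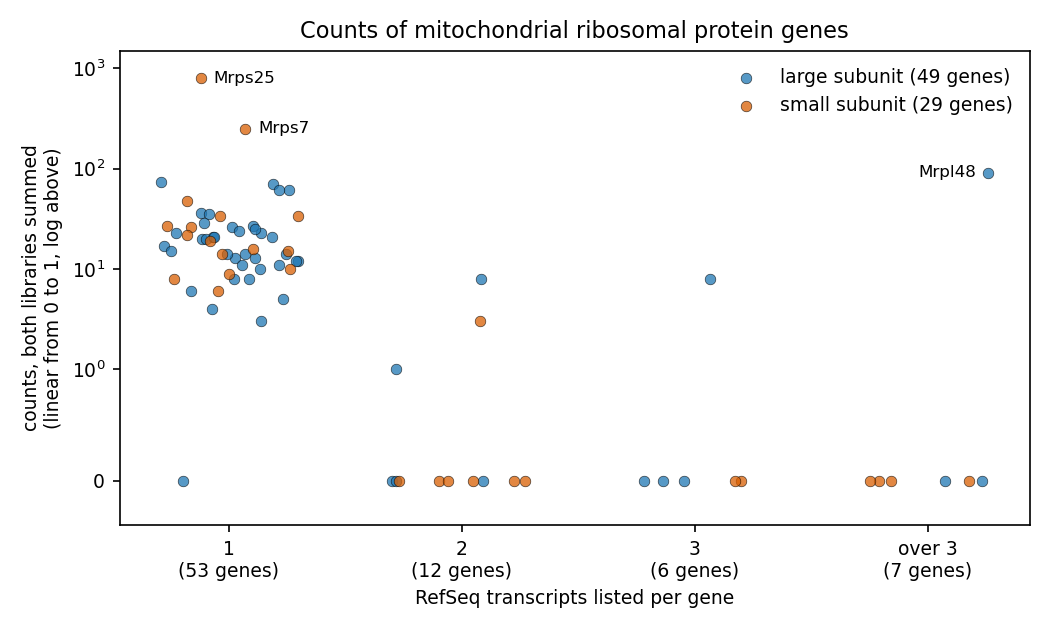
Counts of each of the 78 members, summed over both libraries (vertical axis, linear from 0 to 1 and logarithmic above), by the number of RefSeq transcripts listed for the gene (horizontal axis, points spread sideways for legibility), with large-subunit genes in blue and small-subunit genes in orange. The 53 members with 1 transcript are counted except Mrpl23, whereas 20 of the 25 members with more lie at 0.

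A second feature of the members was overlap with a gene on the opposite strand. Exons of 28 members (20 large, 8 small) shared at least 1 bp with an exon on the other strand, and the other 50 did not. The kit kept the strand of the RNA, but the strand setting of the counting is not given in the sources used here, so which gene of an overlapping pair the counts belong to is uncertain. Overlap was set on all annotated exons of a gene and can be small or absent in the counted transcript. It was 0 bp there for Mrpl21, Mrpl36 and Mrpl46, and 8 of 4278 bp for Mrps26. The 28 overlapping members held 860 of the 1057 member counts of the control and 818 of the 1199 of the transgenic library. Results are therefore given for both classes.

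Mrps25, a small-subunit protein without a bacterial relative (chromosome 6, 92169525 to 92184033, minus strand, GRCm38), was the most counted member, with 417 control and 382 transgenic counts. It alone held 39.5% and 31.9% of all member counts. Its transcript of 6073 bp shares 4590 bp (75.6%) with exons of Nr2c2, a nuclear receptor gene on the plus strand, which itself had 1 and 0 counts on 2 listed transcripts. Mrps7 (chromosome 11, 115603925 to 115608036, plus strand), related to a bacterial protein that binds ribosomal RNA in the head of the small subunit, came next with 129 and 121 counts. It overlaps Gga3 at its start and Mif4gd at its end over 246 of 1962 bp (12.5%), and both partners were at 0 with 2 and 4 transcripts. Per kb of transcript, Mrps25 stood at 403 and 330 CPM and Mrps7 at 386 and 323 CPM. The median per kb of the 6 overlapping small members was 65.2 and 52.5 CPM, that of the 10 small members without overlap 42.4 and 39.2 CPM, that of the 15 overlapping large members 47.9 and 37.7 CPM, and that of the 22 large members without overlap 19.5 and 28.3 CPM.

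Neither gene was 1.5-fold apart. The ratio was 0.728 for Mrps25 (95% counting interval 0.632 to 0.839) and 0.746 for Mrps7 (0.577 to 0.963), so both intervals lay below 1. Under DESeq2 size factors and total counts the interval of Mrps7 reached 1.04 and 1.08, across 1, and that of Mrps25 stayed below it. The other most counted small-subunit members had fewer counts and wider intervals. Mrps27, a protein with RNA-binding repeats, had 21 and 27 counts (1.02), Mrps35 had 11 and 23 (1.66, 0.779 to 3.78), Mrps9 had 13 and 21 (1.28) and Mrps15 had 11 and 16 (1.16). Mrps27 overlaps 6430562O15Rik, which had 201 and 246 counts.

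Large-subunit members had no such leading gene. Mrpl12, related to the bacterial stalk protein that recruits translation factors, had 29 and 44 counts (1.21, 0.738 to 2.0). Mrpl18, which has a bacterial relative, had 26 and 36 (1.10). Mrpl51, without one, had 11 and 18 (1.30). Mrpl49, also specific to mitochondria, had 19 and 16 (0.670), and Mrpl24, a relative of a bacterial protein that acts early in assembly, had 33 and 29 (0.699). All of these intervals reached across 1. Mrpl24 shares 594 bp with the end of Rrnad1, which had 850 and 1044 counts.

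**Figure D2:**
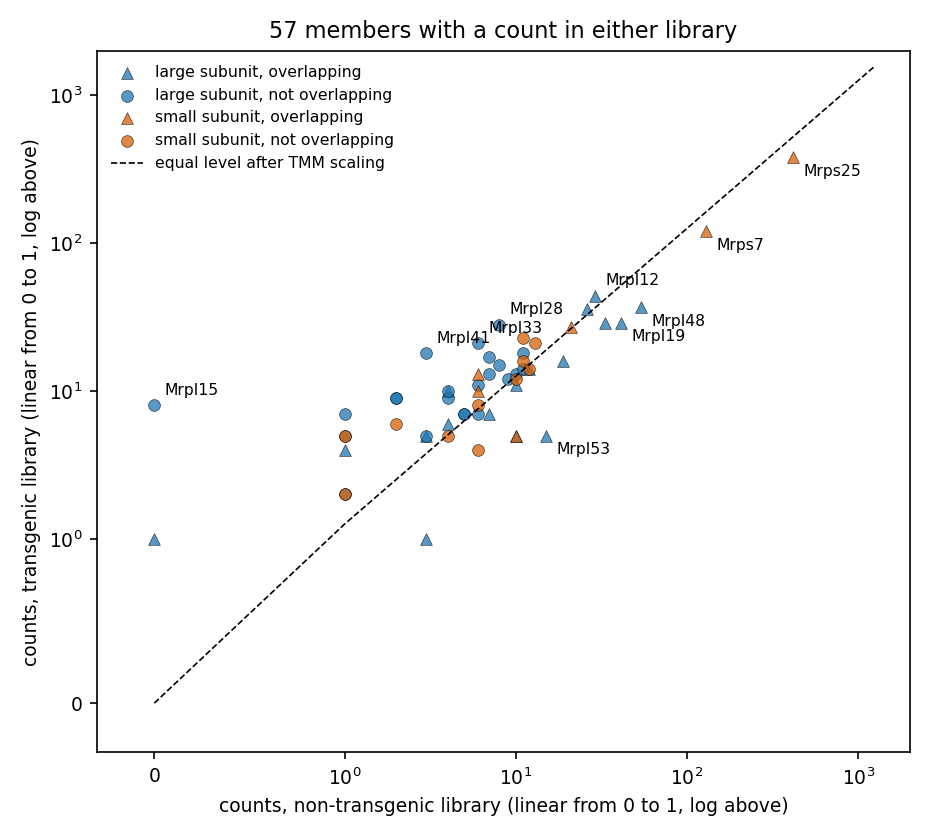
Counts in the non-transgenic (horizontal) and transgenic library (vertical), both axes linear from 0 to 1 and logarithmic above, for the 57 members with a count, coloured by subunit and drawn as triangles where exons overlap a gene on the opposite strand. The dashed line marks equal levels after scaling: Mrps25 and Mrps7 stand far above the rest in counts and below the line, and most circles of the large subunit lie above it.

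A member was called different where its ratio was at least 1.5-fold from 1 with the counting interval on the same side. Of the 53 members with a ratio, 4 were higher in the transgenic library (3.42% of all 4236 genes with a ratio were) and 3 were lower (5.9% of all genes), and 46 were neither. Of the higher ones, Mrpl15 and Mrpl41 were above 3 counts in the transgenic library alone and pass the filter only by being high there. No member passed through the control library alone. All 7 were large-subunit genes, and 0 of the 16 small-subunit genes were called in either direction. The numbers are too small to set the subunits apart on these calls.

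Mrpl41, a large-subunit protein without a bacterial relative (chromosome 2, 24974117 to 24975098, minus strand), had 3 control and 18 transgenic counts and a ratio of 4.77 (1.39 to 25.3). Mrpl28 (chromosome 17, 26123500 to 26126613, plus strand) had 8 and 28, with a ratio of 2.78 (1.24 to 7.07). Mrpl33 (chromosome 5, 31596935 to 31664384, plus strand), a short protein, had 6 and 21, and the same ratio of 2.78 (1.09 to 8.43). Both have bacterial relatives, as does Mrpl15 (chromosome 1, 4773206 to 4785739, minus strand), which had 0 and 8 and was at least 2.12-fold higher against a floor of 3 counts per library, while the counting interval of its ratio, which also covers the error of the 8 counts, starts at 1.36. All 4 lie among the members that do not overlap, where 4.1% of genes with a ratio were higher and 3.14% lower. Per kb, Mrpl33 stood at 73.6 and 230 CPM, Mrpl28 at 43.9 and 137 CPM, and Mrpl41 at 22.7 and 122 CPM.

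All 3 lower members overlap a gene on the opposite strand, where 9.38% of genes with a ratio were lower and 2.48% higher. Mrpl53, without a bacterial relative (chromosome 6, 83109040 to 83109939, plus strand), had 15 and 5 counts, 3.77-fold lower in the transgenic library (ratio 0.265, 0.0754 to 0.767). Its overlap was small, 15 of 695 bp (2.16%), with Ccdc142os, for which no counts were listed. Mrpl48 (chromosome 7, 100545751 to 100608301, minus strand) had 54 and 37, all on the non-coding transcript named above (ratio 0.545, 0.349 to 0.843). Mrpl19 (chromosome 6, 81957851 to 81965958, minus strand), whose bacterial relative lies at the interface of the subunits, had 41 and 29 (ratio 0.562, 0.337 to 0.927). Its tail shares 1962 of 5000 bp with that of Gcfc2, which had 25 and 14 counts (ratio 0.445, 0.214 to 0.890) and was lower as well. Mrpl19 was no longer called under scaling by total counts alone.

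**Figure D3:**
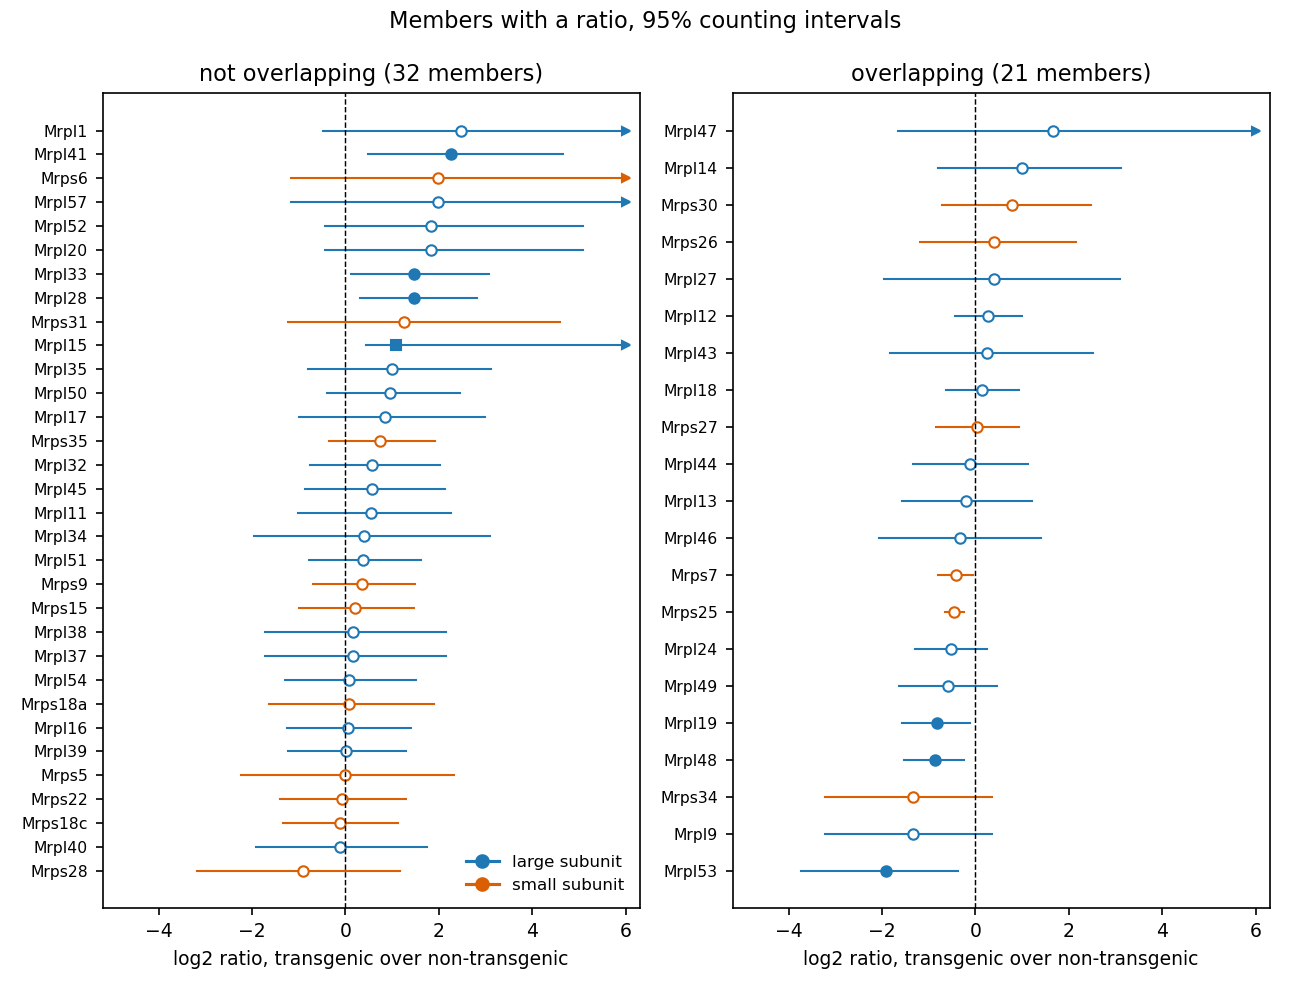
Log2 ratio of transgenic over non-transgenic counts after TMM scaling for the 53 members with more than 3 counts in a library, with 95% counting intervals, split by overlap with the opposite strand and coloured by subunit. Filled marks are the 4 higher and 3 lower members, the square is the bound of Mrpl15, and arrowheads show intervals that run past the axis: the higher members are all in the left panel and the lower ones all in the right.

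Members that do not overlap were higher as a group. Those that do were lower, as were protein-coding genes of their class. The 50 members without overlap summed to 197 and 381 counts, or 0.116% and 0.200% of each library, a ratio of 1.54 (1.29 to 1.84). Protein-coding genes with 1 transcript and no overlap summed to a ratio of 1.07 (1.06 to 1.08). The 28 overlapping members summed to a ratio of 0.756 (0.686 to 0.833), beside 0.878 (0.870 to 0.887) for protein-coding genes of that class with 1 transcript. Mrps25 and Mrps7 held 546 and 503 of the overlapping members' counts. Without them, an alternative added after seeing the data, the ratio was 0.798 (0.680 to 0.936), an interval that includes 0.878. The member sum without overlap did not rest on 1 gene, since leaving out each member in turn, an alternative added after seeing the data, gave 1.49 (without Mrpl28) to 1.58 (without Mrps18c). Splitting it further, members with an opposite-strand exon within 5 kb gave 1.44 (1.17 to 1.77) and members with none gave 1.83 (1.30 to 2.62). The 4 cardiomyocyte markers with a ratio and no overlap had ratios over 1 as well. These were 1.40 (1.28 to 1.53) for Tnni3 and 1.34 (1.23 to 1.45) for Actc1, and, with intervals that included 1, 1.14 (0.906 to 1.44) for Ryr2 and 1.02 (0.876 to 1.19) for Actn2. Markers of other cell types without overlap mostly went the other way. Those of fibroblasts, endothelial cells and macrophages with a ratio lay below 1, and of these Col3a1 alone was called lower (0.484, 0.230 to 0.981). Acta2 of smooth muscle was over 1 (1.59, 0.552 to 5.16). The part of these markers in the members' sum was not tested.

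Gene by gene the pattern was broad. Of the 32 members with 1 transcript and no overlap, 30 had a higher raw count in the transgenic library, Mrpl23 was at 0 in both, and Mrps28 alone was lower, with 6 and 4. Equal levels correspond to a raw ratio of 1.26, so a higher raw count alone shows no difference in level. After scaling, 26 of the 31 counted ones had a ratio over 1 (83.9%, beside 53.8% of 4243 such protein-coding genes). Among those whose 2 counts summed to at least 10 it was 21 of 25 (84%, beside 850 of 1416 genes). For overlapping members with 1 transcript it was 9 of 21 (42.9%, beside 46.7% of 2049 genes). Most of these members had intervals that included 1, so the pattern lies in their direction and sum.

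By subunit, the large members without overlap summed to 120 and 265 counts (ratio 1.76, 1.41 to 2.20), and the small ones to 77 and 116 (ratio 1.20, 0.890 to 1.62). Median log2 ratios were 0.71 and 0.15 in these groups, beside 0.15 over all genes without overlap that had a ratio. Both medians include members above 3 counts in the transgenic library alone, which pass the filter only by being high there. Over all large members, overlapping ones included, the median was 0.38, and 0.15 where the 2 counts summed to at least 10. For all small members it was 0.06 and 0.03. Among members with 1 transcript and no overlap, a ratio over 1 was found for 20 of 22 large and 6 of 10 small ones. The difference between the subunits was itself near the edge of counting error: the large-to-small odds in the transgenic library were 1.46 times those in the control (95% interval 1.00 to 2.13). With Mrps18a and Mrps30 counted as large and Mrps36 left out, an alternative added after seeing the data, the sums gave 1.72 (1.39 to 2.14) and 1.21 (0.888 to 1.66), and the odds ratio 1.42 (0.969 to 2.09), which includes 1.

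Summed over all members, the ratio depended on Mrps25 and Mrps7 and on the scaling. All 78 summed to 1057 and 1199 counts, a ratio of 0.902 (0.830 to 0.981), which was 0.972 (0.894 to 1.06) under DESeq2 size factors and 1.01 (0.933 to 1.10) under total counts. The large subunit gave 391 and 525 counts (ratio 1.07, 0.935 to 1.22), and the small subunit 666 and 674 (ratio 0.805, 0.722 to 0.897). The large subunit gave 1.15 (1.01 to 1.32) under DESeq2 size factors and 1.20 (1.05 to 1.37) under total counts, both above 1. The small subunit gave 0.867 (0.778 to 0.967) and 0.904 (0.811 to 1.01). Mrps25 and Mrps7 together held 82.0% of the small-subunit counts of the control and 74.6% of those of the transgenic library. Without them, an alternative added after seeing the data, the small subunit gave 1.13 (0.892 to 1.44) and all members 1.08 (0.965 to 1.22).

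The same pair set the balance of the subunits. Large-subunit genes were 62.8% of members but held 37.0% of member counts in the control (34.1 to 40.0) and 43.8% in the transgenic one (41.0 to 46.6), an odds ratio of 1.33 (1.12 to 1.58). Without Mrps25 and Mrps7 the shares were 76.5% and 75.4%, with an odds ratio of 0.942 (0.714 to 1.24). Among members without overlap they were 60.9% (53.7 to 67.8) and 69.6% (64.7 to 74.1). Over all members, with Mrps18a and Mrps30 counted as large and Mrps36 left out, they were 38.1% and 45.5%. The odds ratio was then 1.36 (1.14 to 1.61). These shares do not depend on the scaling between the libraries.

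**Figure D4:**
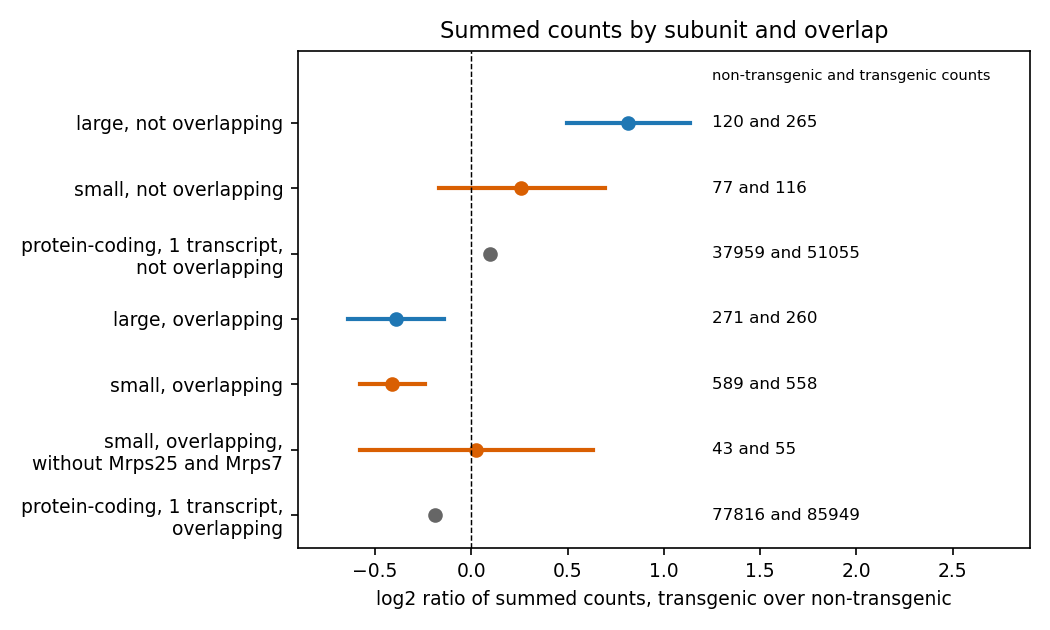
Log2 ratio of summed counts, transgenic over non-transgenic after TMM scaling, with 95% counting intervals (narrower than the mark for the grey groups), for large-subunit (blue) and small-subunit (orange) members and for protein-coding genes with 1 transcript (grey), by overlap with the opposite strand. Sums are printed at the right: large members without overlap, with 120 and 265 counts, stand highest, and overlapping small members without Mrps25 and Mrps7, with 43 and 55 counts, lie near 0.

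Opposite-strand partners that the table lists were found for 21 of the 28 overlapping members, in 22 pairs, of which 14 meet at their starts and 6 at their ends. In the 21 pairs whose partner is not itself a member, the partner had more counts than the member in 9 and fewer in 12. Most partners with fewer counts were listed with several transcripts, and most with more counts with 1. The split therefore cannot be told apart from the number of transcripts listed. Several partners had far more counts than the member. Twnk, the mitochondrial DNA helicase, had 493 and 522 counts opposite Mrpl43 with 4 and 6. Eme1 had 203 and 179 opposite Mrpl27 with 3 and 5, and 4930473A02Rik had 180 and 154 opposite Mrps26 with 6 and 10. Mrpl47, with 1 and 4, lies between Ndufb5, a complex I subunit gene with 46 and 61 counts, and Actl6a with 59 and 57. A pair of members lies opposite each other: Mrpl46 (7 and 7 counts) and Mrps11 (0 and 0, with 3 transcripts) meet head to head. Tmem63b opposite Mrpl14 (4 and 10) had 15 and 19 counts, and Oaz3 opposite Mrpl9 (10 and 5) had 8 and 3.

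Promoter windows from RefSeq (GRCm38.p6, 250 bases before to 50 after a start) matched 69 of the 78 members, with 75 windows. Promoters of nuclear genes for mitochondrial proteins are known as sites of NRF1, of the ETS factor GABP and of YY1. Exact matches were searched on both strands, overlaps included, to the palindromic NRF1 consensus, to CCGGAAG as an ETS core and to a YY1 consensus with 1 free base. The windows of the higher genes Mrpl28, Mrpl33 and Mrpl41 and of the lower gene Mrpl53 show promoters of members that differed. Mrpl32 shows an NRF1 match and Mrps7 a YY1 match, read on the other strand. Capitals mark matches.
Mrpl28 (chr17:26123253-26123552, plus strand, no match): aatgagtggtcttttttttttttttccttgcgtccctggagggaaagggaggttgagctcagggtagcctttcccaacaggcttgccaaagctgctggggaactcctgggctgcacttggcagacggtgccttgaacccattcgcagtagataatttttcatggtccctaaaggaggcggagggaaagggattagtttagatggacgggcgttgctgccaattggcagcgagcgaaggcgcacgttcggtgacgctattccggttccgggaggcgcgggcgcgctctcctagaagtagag
Mrpl33 (chr5:31613701-31614000, plus strand, 1 ETS match): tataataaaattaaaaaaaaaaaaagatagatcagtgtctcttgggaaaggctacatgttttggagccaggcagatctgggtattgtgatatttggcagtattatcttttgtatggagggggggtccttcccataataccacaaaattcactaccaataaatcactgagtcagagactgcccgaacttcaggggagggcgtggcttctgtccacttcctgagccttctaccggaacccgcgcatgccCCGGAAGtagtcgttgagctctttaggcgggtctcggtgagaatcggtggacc
Mrpl41 (chr2:24975049-24975348, minus strand, no match): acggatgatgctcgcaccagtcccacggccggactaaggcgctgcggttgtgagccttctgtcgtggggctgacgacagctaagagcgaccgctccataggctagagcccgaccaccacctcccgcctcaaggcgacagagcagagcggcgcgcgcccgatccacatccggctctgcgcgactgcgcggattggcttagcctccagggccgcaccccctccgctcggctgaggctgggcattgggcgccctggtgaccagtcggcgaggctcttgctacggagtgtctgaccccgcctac
Mrpl53 (chr6:83108858-83109157, plus strand, 2 ETS matches): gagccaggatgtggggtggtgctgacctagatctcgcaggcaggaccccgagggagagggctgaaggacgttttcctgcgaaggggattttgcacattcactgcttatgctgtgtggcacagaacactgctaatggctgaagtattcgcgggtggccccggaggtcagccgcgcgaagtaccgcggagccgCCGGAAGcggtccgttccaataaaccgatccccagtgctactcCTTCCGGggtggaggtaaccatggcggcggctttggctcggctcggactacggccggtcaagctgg
Mrpl32 (chr13:14612988-14613287, minus strand): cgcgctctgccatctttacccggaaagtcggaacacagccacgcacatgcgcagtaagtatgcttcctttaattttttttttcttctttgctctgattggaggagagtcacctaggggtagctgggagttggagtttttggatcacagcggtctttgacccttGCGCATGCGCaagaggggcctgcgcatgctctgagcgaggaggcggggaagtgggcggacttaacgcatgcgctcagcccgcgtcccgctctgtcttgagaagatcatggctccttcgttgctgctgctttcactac
Mrps7 (chr11:115603890-115604189, plus strand): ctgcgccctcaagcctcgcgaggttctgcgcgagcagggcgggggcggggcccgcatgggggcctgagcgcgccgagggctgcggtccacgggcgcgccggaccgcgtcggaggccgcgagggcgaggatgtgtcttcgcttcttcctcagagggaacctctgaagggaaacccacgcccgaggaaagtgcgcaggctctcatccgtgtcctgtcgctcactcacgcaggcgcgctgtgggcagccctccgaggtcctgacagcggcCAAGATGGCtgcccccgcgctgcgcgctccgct

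The windows of the 3 higher genes shown include both kinds, with and without a match, and Mrpl15, also higher, had no window. Of the other lower members, Mrpl48 has 4 windows, 1 of them with an ETS match, and Mrpl19 was not matched. Over all members, an ETS core was found in 34.7% of windows (26 of 75), beside 11.6% of protein-coding and 8.86% of all windows. A YY1 match was found in 14.7% (11), beside 2.85% and 2.51%, and an NRF1 match in 4.0% (those of Mrpl9, Mrpl32 and Mrpl39), beside 1.33% and 0.971%. At least 1 of the 3 was in 48.0% (36 windows), beside 14.9% and 11.7%, and the large (47.9%) and small subunit (48.1%) hardly differed. Of the 46 matches, 78.3% began no more than 60 bases before the start or after it, beside 61.6% of 3896 matches in protein-coding windows. Median GC content was 58.7%, beside 56.3% for protein-coding windows. A match is a description of letters, and none was tested as a binding site.

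The head-to-head pair Mrpl46 and Mrps11 shares part of its promoter. In the Mrpl46 window, capitals mark the 141 bases that the Mrps11 window also covers on the other strand.
Mrpl46 (chr7:78783040-78783339, minus strand): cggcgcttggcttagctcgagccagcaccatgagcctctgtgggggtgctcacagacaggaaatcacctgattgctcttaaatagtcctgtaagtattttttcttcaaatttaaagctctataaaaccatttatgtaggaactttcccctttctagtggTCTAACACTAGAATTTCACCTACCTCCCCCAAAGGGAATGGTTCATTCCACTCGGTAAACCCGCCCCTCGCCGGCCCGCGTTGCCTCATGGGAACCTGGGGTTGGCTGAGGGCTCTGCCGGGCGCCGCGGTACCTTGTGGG

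**Figure D5:**
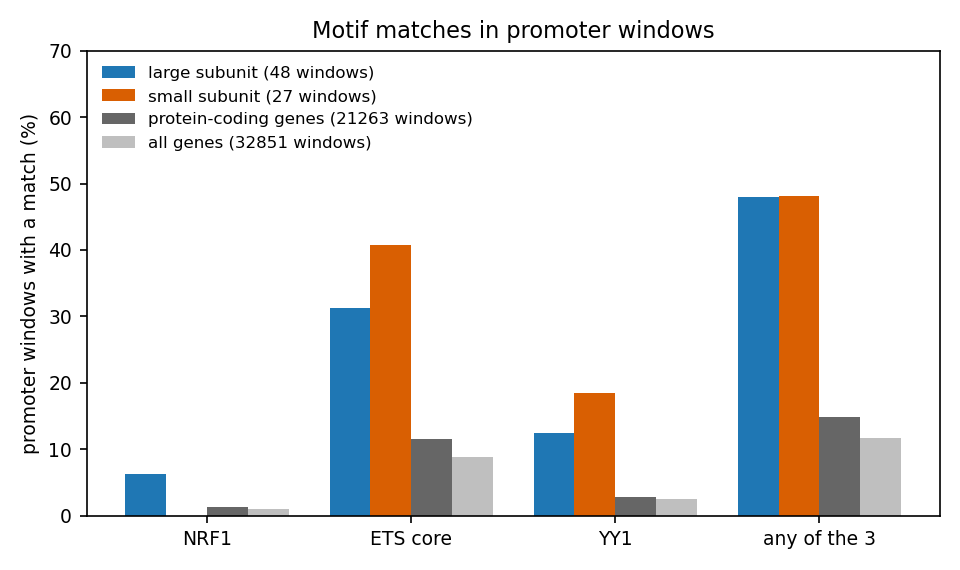
Share of promoter windows (vertical axis, percent, from 0) with an exact match to each motif or to any of the 3, for large-subunit (blue) and small-subunit (orange) members, protein-coding genes (dark grey) and all genes (light grey). Matches to any motif were found in 48.0% of member windows and 14.9% of protein-coding windows.

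Of the 31 genes with a ratio in 5 lists of other genes of mitochondrial gene expression, 1 was higher (3.23%, beside 3.42% of all genes) and 0 were lower (beside 5.9%). Of 5 mitoribosomal proteins with other names, 3 had a ratio, 2 of them over 1, and none was called. Chchd1 had 11 and 20 counts and Aurkaip1 9 and 15, while Dap3 and Ptcd3 were at 0. Of 15 translation factors 8 had a ratio, with a median log2 ratio of 0.05, and that of all genes was 0.05 as well. Among them the elongation factor gene Gfm1, opposite Lxn, was higher with 11 and 30 counts (2.17, 1.06 to 4.80), and none was lower. None was called among the 10 of 23 assembly genes with a ratio (median 0.43, with Mrm1 at 7 and 14 and Mtg1 at 5 and 9), the 8 of 20 synthetase and amidotransferase genes (median 0.83, with Iars2 at 28 and 44 and Gatc at 28 and 23) and the 2 of 5 transcription genes, Twnk (0.842) and Tfam, which packages mitochondrial DNA, with 3 and 12 (3.18, 0.858 to 17.6). The median over all members was 0.25. The medians of these lists and of the members include genes above 3 counts in the transgenic library alone. Such genes pass the filter only by being high there, so these medians cannot rank the lists. In the synthetase list they were Nars2 (1 and 4 counts), Fars2 (3 and 4), Sars2 (2 and 4), Vars2 (2 and 7) and Qrsl1 (3 and 8). Of the genes above 3 counts in both libraries, Iars2 and Gatc had log2 ratios of 0.32 and -0.61, both below that list's median. Gatb, with 8 and 20 counts, had 0.99, above it.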

How the data were processed

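Reads were aligned with STAR and counted with HTSeq against mm10, per the submitters' processing notes. Annotation and strand setting: not given in the sources used here. Libraries were made from poly-T selected RNA with a stranded kit, per the labels' protocols. The deposited values are raw counts per RefSeq transcript. Of 41449 transcripts, 41252 were named by a RefSeq table and 99 by GENCODE. The 98 unnamed ones (1.81% and 1.66% of counts) were each kept as a separate entry in the totals, the scaling and the all-gene values. Counts were summed per gene, and 0 sample columns were left unused.

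Overlap with the opposite strand was computed from GENCODE exons (GRCm38). TMM factors (0.943 and 1.06) came from edgeR 4.0.16 in R 4.3.3. A quasi-likelihood test needs replicates, so none was run and no p-value is given. A ratio was given to genes above 3 counts in at least 1 library, with an exact Clopper-Pearson 95% interval. Calculations used Python 3.11.15, numpy 2.4.6, scipy 1.17.1, pandas 2.3.3 and matplotlib 3.10.9, and were tested on simulated data. Scaling by DESeq2 1.42.0 size factors, the upper quartile and total counts was tried as an alternative, as were other count filters, counts per transcript, and subsets of members.

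The members, lists and rules were chosen with earlier results of these data known. Genes named were members at least 1.5-fold apart beyond their interval, the 8 large and 6 small members with the highest counts, members at 0 in 1 library and above 3 in the other, partners with at least 10 counts, and of each pathway list the genes 1.5-fold apart or the 2 most counted. A gene that the rule takes is not reported here. Other genes were named after their values were seen.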

Additional observations from a re-analysis of the deposited data

How the results depend on the processing

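Leaving out a replicate could not be run with 1 library per group. No paired analysis was possible because each group holds 1 library. The summed log2 ratio of all members, -0.15, became 0.11 without Mrps25 and Mrps7, 0.020 under total counts, 0.62 for members that do not overlap and 0.082 without Mrpl48 and Mrps25. For the small subunit, -0.31 became 0.18, -0.14, 0.26 and -0.10 in the same order, and the large subunit reached 0.81 without overlapping members. The large-subunit share of counts in the non-transgenic library was 76.5% without Mrps25 and Mrps7, 60.9% without overlapping members, 33.6% for members with 1 transcript and 57.5% without Mrpl48 and Mrps25. In the transgenic library it was 75.4%, 69.6% and 62.6% for the first, second and last of these. The alternatives without Mrps25 and Mrps7, and those with Mrps18a and Mrps30 reassigned, were chosen after seeing the data. No overlapping member can be lower once overlapping members are left out, and 0 were.

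The scaling moved the median over all genes by 0.11 with DESeq2 size factors, -0.03 with the upper quartile and 0.17 with total counts, relative to TMM. The share of higher among all called genes was 36.7% under TMM, 54.1%, 33.3% and 62.2% in that order. The 4 higher members were called under every scaling, and Mrpl19 was lost from the lower ones under total counts. Log2 ratios changed sign for Mrps5 and Mrps22 with DESeq2 size factors, for Mrpl39 and Mrps27 with the upper quartile, and for Mrpl40, Mrpl44, Mrps5, Mrps18c and Mrps22 with total counts. Depth limits most single members: at 10 counts or fewer a counting interval spans several-fold.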
